A study of Homo sapiens with 12 samples.

Results

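Genes of the anaphase-promoting complex (APC/C), of the SCF-SKP2 ubiquitin ligase and of survivin were followed through treatment of lung adenocarcinoma cell lines with the MDM2 inhibitor RG7112. The 10 symbols UBE2C, UBE2S, CDC20, FZR1, FBXO5, SKP2, CKS1B, CKS2, BIRC5 and CDCA3 were looked up by Ensembl gene identifier in the gene table. Of these, 9 had a row among the 20595 genes of the table, and CKS2 was not analysed here. A549 and H1792 are established human lung adenocarcinoma lines that the study describes as MDM2-amplified, A549 with wild-type p53 and H1792 with mutant p53. A sentence of its results gives these p53 states the other way round, and a figure caption labels A549 as p53 mutant. Each line received DMSO, the solvent, or RG7112 at 1 μM for 48 h, with 3 libraries in each of the 4 groups (A549 DMSO, A549 RG7112, H1792 DMSO and H1792 RG7112). RG7112 blocks the binding of MDM2 to p53. Each p53 state is represented by 1 line, so p53 status and all other differences between A549 and H1792 cannot be told apart. No source states that the 3 libraries of a group came from separate cultures, and the p-values then measure only the spread between these libraries, which may be technical.

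The APC/C is a ubiquitin ligase that drives the exit from mitosis by sending cyclin B and securin to the proteasome. Its activators are CDC20 in early mitosis and CDH1, encoded by FZR1, from late mitosis through G1, while EMI1, encoded by FBXO5, blocks it in S and G2. The ubiquitin-conjugating enzymes UBE2C and UBE2S start and lengthen the ubiquitin chains on its substrates. SKP2 is the F-box subunit with which an SCF ligase, helped by the small protein CKS1 from CKS1B, marks the CDK inhibitor encoded by CDKN1B for destruction. Survivin, from BIRC5, belongs to the inhibitor of apoptosis family and is a subunit of the chromosomal passenger complex at the centromere. CDCA3, also called Tome-1, is an APC/C substrate that takes part in the removal of the mitotic kinase inhibitor WEE1.

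Total counts per library lay between 2011916 and 6218825, so that 3 counts corresponded to 0.465 to 1.43 CPM (counts relative to the library total, scaled by edgeR's TMM factors). CDKN1A and MDM2, textbook p53 targets, served as a check of the treatment. In A549, CDKN1A rose from 37.2 ± 11.4 to 445 ± 431 CPM (SD, n = 3; log2 fold change 3.58, adjusted p = 0.0252) and MDM2 rose from 8.54 ± 4.99 to 69.2 ± 9.27 CPM (2.99, adjusted p = 0.0102). The CDKN1A call was lost without DMSO replicate 1 (3.72), 2 (3.69) or 3 (3.35), with adjusted p of 0.0867 to 0.0960, and with the replicate block (adjusted p = 0.0672), and its log2 fold change was 2.41 (adjusted p = 0.00914) without RG7112 replicate 3. The MDM2 call was lost without DMSO replicate 2 (3.07, adjusted p = 0.0534). In H1792 the log2 fold changes were 0.15 (adjusted p = 0.882) and -0.05 (adjusted p = 0.928). Among epithelial markers, the keratin genes KRT7, KRT8 and KRT18 had group means of 191 to 13104 CPM in both lines. KRT19 had 1229 and 2955 CPM in A549 DMSO and RG7112, where it was called higher (1.26, adjusted p = 0.00602), and 54.9 and 34.7 CPM in H1792, and KRT18 was called lower in H1792 (-1.04, adjusted p = 0.00437). EPCAM had at most 5.04 CPM in any group and CDH1, the E-cadherin gene, 0.42 to 0.43 CPM in H1792. The fibroblast markers COL1A1 and COL1A2 reached 279 and 1118 CPM in H1792 DMSO, with DCN and LUM at or near 0. The blood and endothelial markers PTPRC, CD3E, PECAM1 and VWF were at or near 0 in all groups, CDH5 had at most 1.14 CPM, and CD14 had 15.2 to 22.0 CPM in A549 and under 1 CPM in H1792. Replicate 3 of A549 stood apart in both treatments: chi-square per degree of freedom over genes was 15.5 to 23.3 for its pairs with the other replicates of its group and 5.12 to 5.63 between those.

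RefSeq promoter windows (GRCh38.p14, 250 bases before to 50 after the start) were available for 7 of the 9 measured genes. They were searched on both strands for the cell cycle homology region (CHR, TTTGAA or TTCGAA), for the CCAAT box (CCAAT) and for an E2F site (TTTGGCGC, TTTCGCGC, TTTCCCGC or TTTGCCGC). A CHR match was present for 5 of the 7 genes (CDC20, FZR1, FBXO5, CKS1B and CDCA3), against 19.5% of 27305 genes with a window. A CCAAT match was present for 5 of the 7 (UBE2S, CDC20, FBXO5, CKS1B and CDCA3), against 39.7% of all genes, and the E2F letters for 0 of the 7, against 3.99%. FZR1 and FBXO5 have 2 windows each, of which 1 held a match. The stretches from 250 bases before to 20 after the start are shown for the 4 genes with a window that were called lower in A549 and for SKP2, the gene called higher in H1792. Capitals mark CHR and CCAAT letters on either strand, so that a CHR on the other strand reads TTCAAA and a CCAAT box ATTGG.
CDC20 (chr1:43358731-43359000, plus strand): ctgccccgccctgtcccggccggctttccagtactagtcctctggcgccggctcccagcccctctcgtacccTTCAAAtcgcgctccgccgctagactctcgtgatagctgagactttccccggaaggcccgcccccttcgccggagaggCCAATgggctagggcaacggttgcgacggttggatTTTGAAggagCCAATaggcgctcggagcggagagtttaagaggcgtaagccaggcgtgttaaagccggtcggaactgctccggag
CKS1B (chr1:154974431-154974700, plus strand): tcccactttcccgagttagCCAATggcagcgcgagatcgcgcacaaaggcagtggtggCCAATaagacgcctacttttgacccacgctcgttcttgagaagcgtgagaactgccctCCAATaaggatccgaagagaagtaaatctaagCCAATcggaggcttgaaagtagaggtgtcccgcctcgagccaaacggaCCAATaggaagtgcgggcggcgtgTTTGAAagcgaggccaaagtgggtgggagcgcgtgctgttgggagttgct
CDCA3 (chr12:6851267-6851536, minus strand): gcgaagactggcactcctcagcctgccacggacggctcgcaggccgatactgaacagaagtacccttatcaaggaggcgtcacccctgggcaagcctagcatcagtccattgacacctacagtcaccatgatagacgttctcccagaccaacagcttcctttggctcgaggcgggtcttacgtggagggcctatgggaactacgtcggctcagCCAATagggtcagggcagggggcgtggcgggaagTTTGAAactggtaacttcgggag
UBE2S (chr19:55407769-55408038, minus strand): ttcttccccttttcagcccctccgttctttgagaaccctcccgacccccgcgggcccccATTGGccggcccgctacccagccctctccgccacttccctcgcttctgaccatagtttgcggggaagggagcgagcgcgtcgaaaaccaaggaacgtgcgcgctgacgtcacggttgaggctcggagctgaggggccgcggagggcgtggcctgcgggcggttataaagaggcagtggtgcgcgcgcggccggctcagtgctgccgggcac
SKP2 (chr5:36151861-36152130, plus strand): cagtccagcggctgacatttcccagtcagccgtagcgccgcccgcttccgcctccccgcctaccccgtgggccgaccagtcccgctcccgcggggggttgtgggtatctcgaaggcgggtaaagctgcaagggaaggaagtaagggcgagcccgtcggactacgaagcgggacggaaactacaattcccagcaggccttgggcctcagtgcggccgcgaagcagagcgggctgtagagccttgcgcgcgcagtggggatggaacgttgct
In CDC20, CKS1B and CDCA3 a CHR on the strand of the gene stood close to the start, with its first letter 65, 30 and 3 bases before it (-65, -30 and -3), and at least 1 CCAAT box lay upstream of it (first letters at -100, -54 and -37 for the nearest). CDC20 held a further CCAAT box at -55 and a CHR on the other strand at -178. The UBE2S window held a CCAAT box at -191 and no CHR letters, and the SKP2 window held no match. These matches are descriptions of the letters and not of bound factors.

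In A549, RG7112 lowered the activator CDC20, the conjugating enzymes UBE2C and UBE2S, the SCF cofactor CKS1B, survivin and CDCA3. A gene was called where the adjusted p was under 0.05 over all genes tested and the absolute log2 fold change was above 1. Of the 8 members tested in A549, 6 were called lower and 0 higher by edgeR's quasi-likelihood test, DESeq2 and limma-trend alike, with 0 higher at an unadjusted p under 0.05, where 3.01% of 10739 genes were called lower and 3.18% higher. Those shares are 323 and 342 genes, which became 159 and 151 without DMSO replicate 2, 169 and 149 without DMSO replicate 1, 190 and 217 without RG7112 replicate 1, and 195 and 203 without RG7112 replicate 2. FZR1 and SKP2 were not called, and FBXO5 had too few counts to enter the test. The summed level of the 9 genes lay at 1065 to 1386 CPM in the DMSO libraries and at 158 to 231 CPM in the RG7112 libraries. In bulk RNA, fewer cells in a cell cycle stage and less RNA per cell cannot be told apart.

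**Figure D1:**
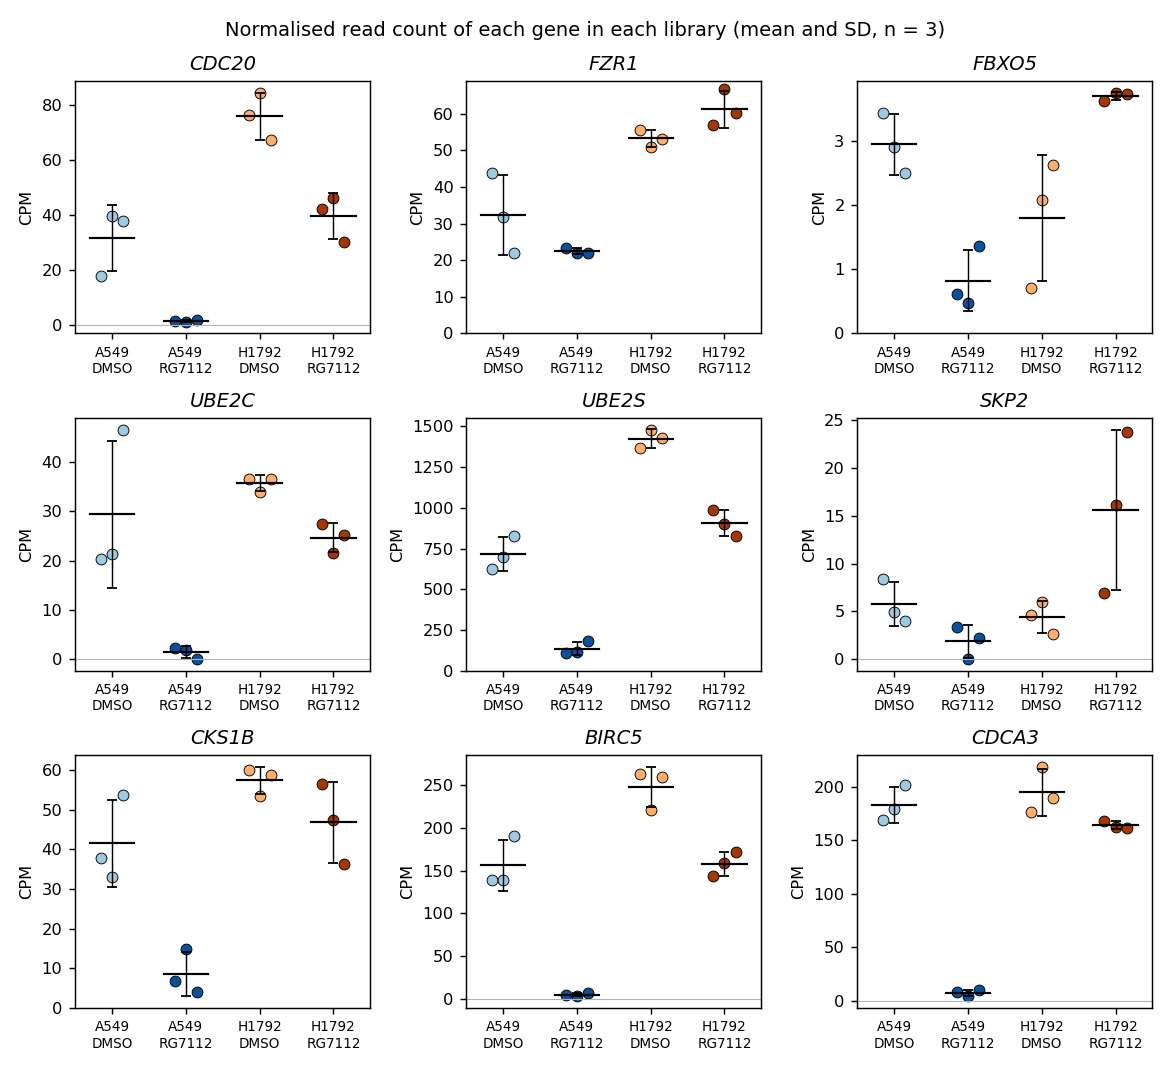
Normalised read count (CPM, linear axis) of each of the 9 measured genes in each library, with A549 in blue, H1792 in orange, DMSO pale and RG7112 dark. Points are libraries, the line is the mean and the bar the SD (n = 3). BIRC5 falls from 139 to 191 CPM to 3.34 to 6.79 CPM in A549 and lies between 144 and 263 CPM in H1792.

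Among the activators, CDC20 (ENSG00000117399, chr1:43358955-43363203, plus strand) had 17.8, 39.6 and 37.6 CPM in the A549 DMSO libraries and 1.39, 0.953 and 1.63 CPM with RG7112. The groups did not overlap, and DMSO replicate 1 was the lowest of its group. CDC20 fell 22.7-fold (log2 fold change -4.51, SE 0.44, adjusted p = 0.00197). FZR1 (ENSG00000105325, chr19:3506273-3538330, plus strand) had 43.7, 31.7 and 21.9 CPM with DMSO and 23.4, 21.9 and 22.0 CPM with RG7112. The FZR1 groups overlapped, and its log2 fold change of -0.53 (SE 0.28, adjusted p = 0.313) did not pass the test.

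The inhibitor gene FBXO5 (ENSG00000112029, chr6:152970519-152983579, minus strand) was the least abundant member. It had 3.44, 2.90 and 2.49 CPM with DMSO, from 10 to 17 counts, and 0.620, 0.477 and 1.36 CPM with RG7112, from 1 to 5 counts. These values did not overlap but rest on few counts. With no filter on low counts, its log2 fold change in A549 was -1.80 (SE 0.63, adjusted p = 0.176).

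Of the conjugating enzymes, UBE2C (ENSG00000175063, chr20:45812576-45816957, plus strand) had 20.3, 21.3 and 46.6 CPM with DMSO and 2.32, 1.91 and 0 CPM with RG7112, the last from 0 counts in replicate 3. DMSO replicate 3 was the highest and RG7112 replicate 3 the lowest library. UBE2C fell 19.8-fold (log2 fold change -4.31, SE 0.81, adjusted p = 0.0217). The call was lost when any 1 library other than RG7112 replicate 3 was left out: -4.53 without DMSO replicate 1, -4.51 without DMSO replicate 2, -3.82 without DMSO replicate 3, -5.22 without RG7112 replicate 1 and -4.44 without RG7112 replicate 2, with adjusted p between 0.0578 and 0.0756. Without replicate 3 in both treatments, UBE2C was called at -3.24 (SE 0.30, adjusted p = 0.00692).

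UBE2S (ENSG00000108106, chr19:55399745-55407777, minus strand) was the most abundant member, with 626, 695 and 827 CPM with DMSO and 107, 115 and 183 CPM with RG7112. Replicate 3 was the highest in both groups, and the groups did not overlap. UBE2S fell 5.29-fold (log2 fold change -2.40, SE 0.24, adjusted p = 0.00206). The gene overlaps RPL28 on the other strand, whose log2 fold change in A549 was 0.25 (adjusted p = 0.640). The library kit marks strand, but no source states whether the counting used it.

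In SCF-SKP2, the cofactor and the F-box gene were unlike in level. CKS1B (ENSG00000173207, chr1:154974653-154979249, plus strand) had 37.8, 32.9 and 53.8 CPM with DMSO and 6.82, 14.8 and 4.07 CPM with RG7112, with no overlap. CKS1B fell 5.03-fold (log2 fold change -2.33, SE 0.47, adjusted p = 0.0280). This call was lost without any 1 library other than RG7112 replicate 2: -2.40 without DMSO replicate 1, -2.47 without DMSO replicate 2, -2.10 without DMSO replicate 3, -2.19 without RG7112 replicate 1 and -2.0 without RG7112 replicate 3, with adjusted p between 0.0534 and 0.111. Without replicate 3 in both treatments its log2 fold change was -1.79 (SE 0.41, adjusted p = 0.0611), and 5 members were then called lower.

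SKP2 (ENSG00000145604, chr5:36151989-36184319, plus strand) had 8.43, 4.95 and 3.99 CPM with DMSO and 3.41, 0 and 2.17 CPM with RG7112. The groups did not overlap, as in 16.3% of all genes tested in A549 with lower values under RG7112 (16.2% with higher values). Its log2 fold change of -1.45 had an SE of 0.79 and did not pass the test (adjusted p = 0.322).

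BIRC5 (ENSG00000089685, chr17:78214186-78225636, plus strand) had 139, 139 and 191 CPM with DMSO and 4.65, 3.34 and 6.79 CPM with RG7112. Every RG7112 library lay far below every DMSO library. Survivin RNA fell 30.9-fold (log2 fold change -4.95, SE 0.29, adjusted p = 0.000326). CDCA3 (ENSG00000111665, chr12:6844793-6852066, minus strand) had 169, 179 and 202 CPM with DMSO and 8.21, 4.29 and 9.78 CPM with RG7112, again with no overlap. It fell 23.7-fold (log2 fold change -4.57, SE 0.28, adjusted p = 0.000326). CDCA3 overlaps GNB3 on the other strand, whose log2 fold change in A549 was -1.11 (adjusted p = 0.163).

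In H1792, no member was called lower and SKP2 alone was called higher, so that 0 of 9 tested members were called lower and 1 higher, with the same counts by DESeq2 and limma-trend, where 4.34% of 9914 genes were called lower and 10.3% higher. Those shares are 430 and 1020 genes, against 249 and 1541 with scaling by library size alone and 338 and 616 with the GC correction described with the GC content. UBE2S, CDC20 and BIRC5 were lower with an adjusted p under 0.05 but within the fold threshold, as 16.5% of the genes tested were lower at that adjusted p, and 4 members were lower at an unadjusted p under 0.05, where this held for 22.3%. The summed level of the 9 genes lay at 2040 to 2150 CPM with DMSO and at 1341 to 1492 CPM with RG7112, and without UBE2S at 670 to 673 CPM and 506 to 524 CPM. Of the 9 members, 5 were lower without overlap between the groups, where this held for 28.4% of the genes tested, and 3 were higher without overlap, where this held for 24.9%.

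UBE2S in H1792 had 1366, 1480 and 1429 CPM with DMSO and 986, 901 and 828 CPM with RG7112, a log2 fold change of -0.58 (SE 0.07, adjusted p = 0.00389). CDC20 had 76.5, 84.2 and 67.1 CPM with DMSO and 42.1, 46.1 and 30.0 CPM with RG7112, a log2 fold change of -0.87 (SE 0.18, adjusted p = 0.0128). Without RG7112 replicate 2 the CDC20 value was -1.004 (adjusted p = 0.0267), past the fold threshold. BIRC5 had 263, 221 and 259 CPM with DMSO and 144, 159 and 171 CPM with RG7112, a log2 fold change of -0.57 (SE 0.12, adjusted p = 0.0125). In these 3 genes every RG7112 library was below every DMSO library. For UBE2S, the overlapping gene RPL28 had a log2 fold change of -0.97 (adjusted p = 0.00272) in the same libraries.

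UBE2C had 33.9 to 36.6 CPM with DMSO and 21.5 to 27.4 CPM with RG7112, a log2 fold change of -0.46 (SE 0.16, adjusted p = 0.0624). CDCA3 had 176 to 219 CPM with DMSO and 162 to 168 CPM with RG7112, a log2 fold change of -0.17 (SE 0.08, adjusted p = 0.151). CKS1B had 53.5 to 59.9 CPM with DMSO and 36.3 to 56.6 CPM with RG7112, with overlap between the groups (log2 fold change -0.22, SE 0.18, adjusted p = 0.377). With scaling by library size alone, which moved the median log2 fold change of all genes in H1792 to 0.27, the signs of CDCA3 (0.09) and CKS1B (0.03) turned.

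SKP2, the F-box gene, had 4.58, 6.0 and 2.62 CPM with DMSO and 6.97, 16.2 and 23.7 CPM with RG7112 in H1792. The groups did not overlap, but the RG7112 libraries ranged widely, and replicate 1 was close to the DMSO libraries. SKP2 rose 3.67-fold (log2 fold change 1.87, SE 0.52, adjusted p = 0.0331). The call was lost without any 1 library other than RG7112 replicate 1: 1.89 without DMSO replicate 1, 2.14 without DMSO replicate 2, 1.64 without DMSO replicate 3, 1.86 without RG7112 replicate 2 and 1.45 without RG7112 replicate 3, with adjusted p between 0.0670 and 0.102. FBXO5 had 0.705, 2.08 and 2.62 CPM with DMSO, from 2 to 9 counts, and 3.62, 3.74 and 3.72 CPM with RG7112, from 14 to 21 counts (log2 fold change 1.11, SE 0.49, adjusted p = 0.121). FZR1 had 51.0 to 55.7 CPM with DMSO and 56.8 to 66.7 CPM with RG7112 (log2 fold change 0.28, SE 0.12, adjusted p = 0.121). It overlaps MFSD12 on the other strand, whose log2 fold change in H1792 was -1.02 (adjusted p = 0.00739).

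**Figure D2:**
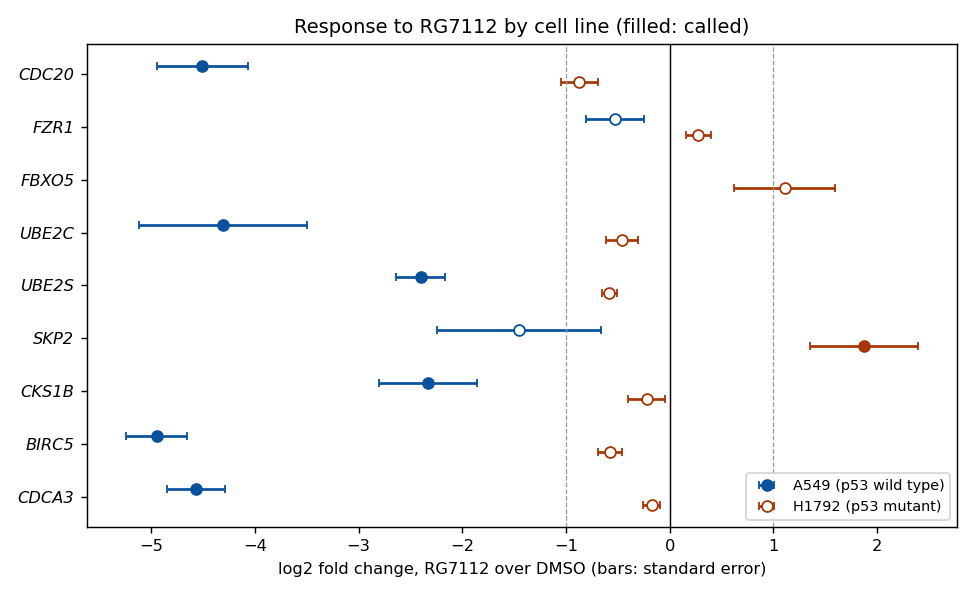
Log2 fold change of RG7112 over DMSO (horizontal axis) for each member in A549 (blue) and H1792 (orange), with bars for the standard error and filled points for called genes. FBXO5 has no A549 point because it was not tested there. The 6 called A549 points lie between -4.95 and -2.33, and SKP2 in H1792 is at 1.87.

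The log2 fold changes in H1792 varied with the base composition of the genes. Across 9165 genes with an annotated sequence, Spearman's rho between log2 fold change and GC content of the longest transcript was -0.48 in H1792. Across 9941 genes it was 0.25 in A549. Genes are not independent replicates and share the libraries, so these are descriptions. In H1792 the median log2 fold change was 0.63 in the lowest of 10 equal groups of genes by GC content and -0.52 in the highest. FBXO5 (34.2% GC) and SKP2 (41.3%) belong to the GC-poor genes, while CDC20 (57.9%) and FZR1 (64.0%) are GC-rich. After a loess correction for GC content, the log2 fold change in H1792 was 1.35 for SKP2 (SE 0.47, adjusted p = 0.0816), 0.43 for FBXO5 (adjusted p = 0.589) and -0.51 for CDC20 (adjusted p = 0.0816). FZR1 then stood at 0.87 (SE 0.15, adjusted p = 0.0100) and BIRC5 at -0.48 (adjusted p = 0.0297). UBE2S moved from -0.58 to -0.31 (adjusted p = 0.0332) and CKS1B from -0.22 to -0.58 (adjusted p = 0.0918). The 6 members called in A549 were called after the correction too, with CDC20 at -4.64 and BIRC5 at -4.98.

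**Figure D3:**
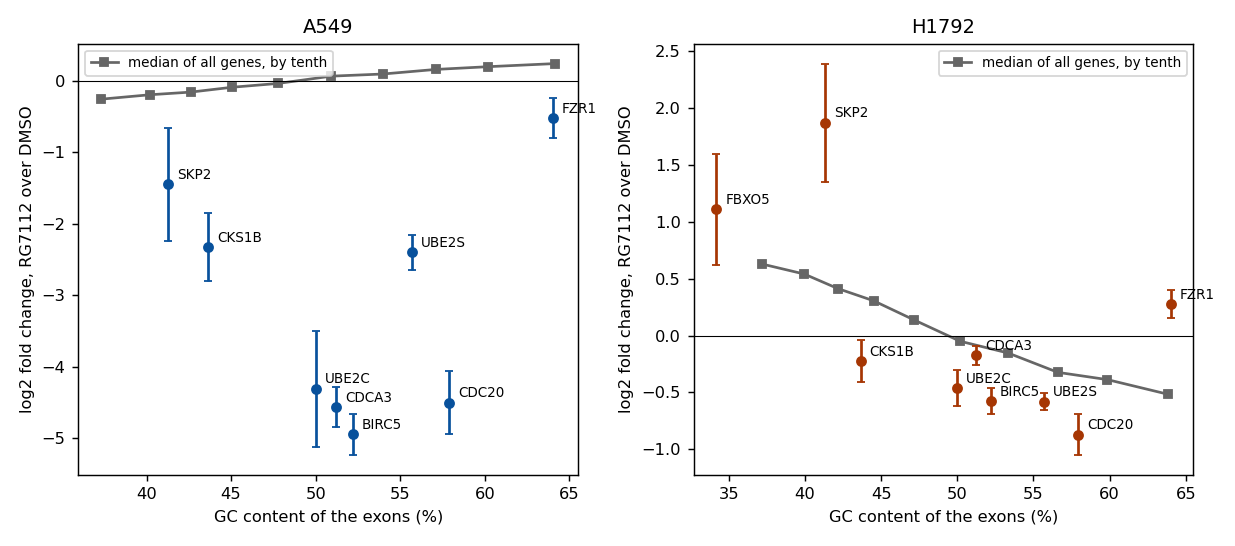
Log2 fold change of each member (points, with standard error bars) against the GC content of its longest transcript in percent. The axis labels this as exons, with A549 left and H1792 right. The grey line joins the medians of all genes in 10 equal groups by GC content. In H1792 the line runs from 0.63 to -0.52 and in A549 from -0.26 to 0.24.

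The question whether the lines differed in their response was tested as the interaction of line and treatment over all 12 libraries. The response was lower in A549 for 8 of the 9 members with an adjusted p under 0.05, where 11.4% of 11666 genes had a lower and 10.4% a higher response in A549. In all genes this was 1329 lower and 1210 higher, which became 2157 and 645 with scaling by library size alone and 707 and 1176 with the GC correction. CDCA3 and BIRC5 showed the largest differences among the members, with -4.31 (SE 0.27, adjusted p = 5.20e-06) and -4.29 (SE 0.28, adjusted p = 6.55e-06) on the log2 scale. UBE2C differed by -3.76 (SE 0.78, adjusted p = 0.00841) and CDC20 by -3.55 (SE 0.47, adjusted p = 0.000786). UBE2S differed by -1.75 (SE 0.26, adjusted p = 0.00160), less than the others with such an adjusted p.

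SKP2 differed by -3.23 (SE 0.99, adjusted p = 0.0408), FBXO5 by -2.81 (SE 0.74, adjusted p = 0.0223) and CKS1B by -2.05 (SE 0.51, adjusted p = 0.0183). For SKP2 the adjusted p rose to between 0.0596 and 0.0962, with differences of -3.54 to -2.88, without A549 DMSO replicate 1 or 2, A549 RG7112 replicate 3, any H1792 DMSO replicate, or H1792 RG7112 replicate 2 or 3. For FBXO5 it rose to 0.0542 without A549 DMSO replicate 1 (-2.74), 0.0510 without A549 RG7112 replicate 1 (-2.62) and 0.0521 without H1792 RG7112 replicate 2 (-2.85). After the GC correction these 3 genes no longer passed, with -2.38 for SKP2 (adjusted p = 0.107), -1.60 for FBXO5 (adjusted p = 0.202) and -1.47 for CKS1B (adjusted p = 0.0620). FZR1 differed by -0.73 (SE 0.30, adjusted p = 0.110), and by -1.40 (adjusted p = 0.0305) after the GC correction and -0.95 (adjusted p = 0.0158) without A549 DMSO replicate 3.

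Before treatment, the members were at similar or higher levels in H1792. CDC20 was called higher in H1792 DMSO than in A549 DMSO and 0 members were called lower by edgeR or with an unadjusted p under 0.05, where 14.5% of 11666 genes were called higher and 20.4% lower. CDC20 had 75.9 ± 8.56 CPM in H1792 and 31.7 ± 12.05 CPM in A549 (SD, n = 3; log2 fold 1.26, SE 0.28, adjusted p = 0.00377), and 0.96 without A549 DMSO replicate 1, below the fold threshold. UBE2S was higher in H1792 with a log2 fold of 0.99 (SE 0.18, adjusted p = 0.00105), at the edge of the fold threshold. It was past that threshold without A549 DMSO replicate 3 (1.11), H1792 DMSO replicate 1 (1.03) or H1792 DMSO replicate 3 (1.001). FZR1 (0.72, adjusted p = 0.0171) and BIRC5 (0.66, adjusted p = 0.00936) were higher within the fold threshold. For FZR1 the adjusted p rose to 0.0628 without A549 DMSO replicate 2 (0.68), to 0.0651 with the GC correction (0.66), to 0.0551 with the filter of 10 counts in all samples (0.55) and to 0.162 with scaling by library size alone (0.44). The replicate block gave FZR1 0.46 (adjusted p = 0.246). That fit compared the lines at the level of replicate 1 and not at the mean of the DMSO groups. The log2 folds of UBE2C (0.28), CKS1B (0.47), CDCA3 (0.09), SKP2 (-0.35) and FBXO5 (-0.70) had adjusted p-values between 0.283 and 0.701. Over all genes, 1697 were called higher and 2376 lower in H1792, against 1242 and 2959 with scaling by library size alone.

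Per kilobase of the principal transcript, the order of the levels in A549 DMSO was UBE2S (281 ± 40.2 CPM per kb, SD, n = 3), CDCA3 (94.2 ± 8.64), BIRC5 (59.4 ± 11.4), CKS1B (54.7 ± 14.4), UBE2C (34.6 ± 17.5), CDC20 (17.8 ± 6.78), FZR1 (6.23 ± 2.10), SKP2 (1.54 ± 0.62) and FBXO5 (1.45 ± 0.23 CPM per kb). BIRC5 and CKS1B, CKS1B and UBE2C, UBE2C and CDC20, and SKP2 and FBXO5 were neighbours that lay within the sum of their SDs. In A549 RG7112 the order was UBE2S (53.1 ± 16.4), CKS1B (11.3 ± 7.32), FZR1 (4.31 ± 0.16), CDCA3 (3.82 ± 1.46), BIRC5 (1.87 ± 0.66), UBE2C (1.66 ± 1.46), CDC20 (0.746 ± 0.193), SKP2 (0.495 ± 0.459) and FBXO5 (0.402 ± 0.232 CPM per kb). All neighbours below UBE2S in this order lay within the sum of their SDs. FZR1 stood above CDC20 in the treated A549 libraries and below it in the other 3 groups. In H1792 DMSO the order was UBE2S (559 ± 22.3 CPM per kb), CDCA3 (100.3 ± 11.2), BIRC5 (94.2 ± 8.91), CKS1B (75.7 ± 4.49), CDC20 (42.7 ± 4.82), UBE2C (42.0 ± 1.84), FZR1 (10.2 ± 0.45), SKP2 (1.17 ± 0.45) and FBXO5 (0.883 ± 0.484). CDCA3 and BIRC5, CDC20 and UBE2C, and SKP2 and FBXO5 lay within the sum of their SDs. With RG7112, SKP2 stood at 4.16 ± 2.23 and FBXO5 at 1.81 ± 0.03 CPM per kb, still the lowest.

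Ratios of partner genes within a library do not depend on the scaling between libraries, but they do depend on GC content where the partners differ in it. The ratio of CDC20 to FZR1 counts was 0.407, 1.25 and 1.72 in A549 DMSO and 0.0596, 0.0435 and 0.0741 in A549 RG7112. In H1792 it was 1.37, 1.65 and 1.26 with DMSO and 0.741, 0.691 and 0.498 with RG7112. The treated libraries were below the DMSO libraries in both lines, with shifts of -3.89 in A549 and -1.16 in H1792 on the log2 scale. The two-sided exact permutation p was 0.1 for each, the smallest that 3 against 3 libraries allow. The ratio of FBXO5 to FZR1 moved by -1.27 in A549 and by 0.91 in H1792 on the log2 scale, without overlap in either line (exact permutation p = 0.1 each). FBXO5 and FZR1 have the lowest and the highest GC content of the members, and with the GC correction their log2 fold changes in H1792 were 0.43 and 0.87, so that the order of the changes turned.

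UBE2C to UBE2S moved by -2.51 in A549 without overlap (exact permutation p = 0.1), a value that includes the library with 0 UBE2C counts, and by 0.12 in H1792 with overlap (exact permutation p = 0.4). SKP2 to CKS1B moved by 2.01 in H1792 without overlap (exact permutation p = 0.1) and by 0.25 in A549, where the treated libraries lay on either side of the DMSO libraries (exact permutation p = 1). BIRC5 to CDCA3 overlapped in both lines, with shifts of -0.32 and -0.41 (exact permutation p = 0.2 each). These 10 comparisons all stayed at or above the smallest p of the design, and no adjustment could bring them below it.

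**Figure D4:**
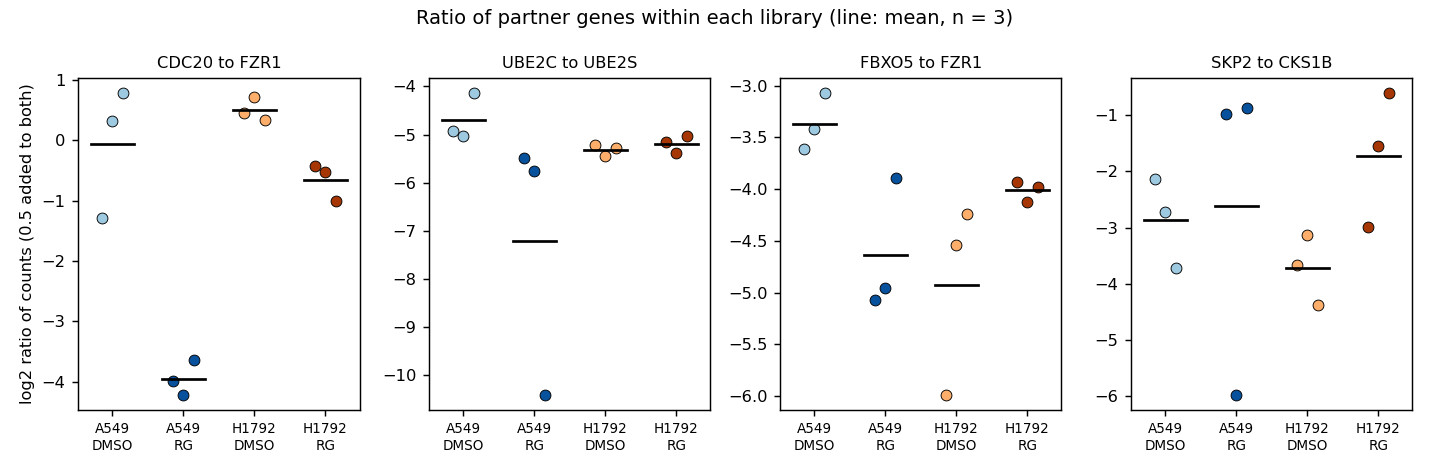
Log2 ratio of the counts of partner genes (0.5 added to both counts) in each library, with 1 panel per pair, lines at the group means (n = 3) and colours as in the plot of CPM values. The CDC20 to FZR1 panel shows the treated A549 libraries between -4.22 and -3.65, and the lowest UBE2C to UBE2S point (-10.4) and the lowest SKP2 to CKS1B point (-5.98) are libraries with 0 counts of the numerator.

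Of 14 APC/C core subunit genes, 12 were tested in A549. There 0 were called by edgeR's quasi-likelihood test, DESeq2 or limma-trend (3 lower and 1 higher at an unadjusted edgeR p under 0.05). Their median log2 fold change in A549 was -0.39 against -0.0149 over all genes. ANAPC11, a catalytic subunit, had the smallest p with -0.78 (SE 0.16, adjusted p = 0.0301), which rose to between 0.0576 and 0.115 without any 1 library other than RG7112 replicate 3 (-0.88 to -0.63). CDC23, a scaffold subunit, had -0.70 (adjusted p = 0.198), and ANAPC2, the cullin-like subunit, had 0.70 (adjusted p = 0.122). In H1792, 1 of 13 core genes was called lower and 1 higher: ANAPC7 at -1.01 (adjusted p = 0.0128) and CDC27 at 1.38 (adjusted p = 0.00859). Over all genes tested, 4.34% were called lower and 10.3% higher in H1792, and 3.01% and 3.18% in A549. The same shares apply to the called counts of the lists below. At an unadjusted p under 0.05, 22.3% of all genes tested were lower in H1792, and the other shares at that p were not counted. With no fold threshold, 433 genes were lower and 467 higher in A549 at an adjusted p under 0.05. In H1792 these were 1632 and 1752 genes. After the GC correction CDC27 stood at 0.74 (adjusted p = 0.057).

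Of 18 listed APC/C substrates, 16 were tested in A549 and 15 were called lower, with a median log2 fold change of -3.67. DESeq2 called 14 lower and limma-trend 15. TK1, NEK2 and GMNN, named here after their values were seen, had adjusted p of 0.0473, 0.0426 and 0.0407. Of this list only RRM2, CCNB1, AURKA and AURKB were followed in A549 with libraries left out. RRM2, a ribonucleotide reductase subunit, fell from 182 ± 39.6 to 3.80 ± 0.43 CPM (SD, n = 3; log2 fold change -5.60, adjusted p = 0.000283). CCNB1, cyclin B, had a log2 fold change of -3.27 (adjusted p = 0.000326) and AURKA, a mitotic kinase, of -2.46 (adjusted p = 0.000881). In H1792, 1 of 16 tested substrates was called lower and 4 higher, where 4.34% and 10.3% of all genes were. The median of the tested substrates was 0.29 against 0.0096 over all genes. BUB1, a checkpoint kinase, was at 1.12 (adjusted p = 0.00404) and PLK1, the polo-like kinase, at -1.31 (adjusted p = 0.0188). With the GC correction these values were 0.68 and -0.97, both within the fold threshold. The other 3 called higher, RRM2, NEK2 and HMMR, are named here after their values were seen.

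The spindle checkpoint holds the APC/C inactive until chromosomes are attached. Of 5 tested genes listed around this checkpoint, not all of them inhibitors of the APC/C, 2 were called lower in A549. BUB1B had a log2 fold change of -4.21 (adjusted p = 0.000700) and MAD2L1 of -3.30 (adjusted p = 0.00121), while BUB3 had -1.13 (adjusted p = 0.0824; DESeq2 called 3). In H1792, 0 of 4 tested were called by edgeR, DESeq2 or limma-trend, with 1 lower and 3 higher at an unadjusted p under 0.05. At that p 22.3% of all genes were lower, and the share of higher genes was not counted. MAD1L1 had the smallest p of the list in H1792 with -0.80 (adjusted p = 0.00330), which became -0.27 (adjusted p = 0.0681) with the GC correction.

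In the SCF core, the NEDD8 cycle that activates it and other F-box adaptors, 0 of 10 tested genes were called in A549 by edgeR, DESeq2 or limma-trend, with 1 lower at an unadjusted p under 0.05 and a median of -0.29. CAND1, which exchanges F-box subunits, had -1.08 (adjusted p = 0.144), FBXW7, an F-box adaptor, had 1.11 (adjusted p = 0.235) and UBE2M, a NEDD8-conjugating enzyme, had -0.60 (adjusted p = 0.255). In H1792, 1 of 10 was called lower, the F-box gene BTRC, named here after its value was seen. FBXW11 had 0.80 (adjusted p = 0.00619), within the fold threshold, and 0.46 (adjusted p = 0.0297) with the GC correction. Its adjusted p reached 0.094 under another of the alternatives. Of 7 genes whose proteins SKP2 marks, 5 were tested, and in A549 1 was called lower and 1 higher. CDT1, a replication licensing factor, fell by 3.07 on the log2 scale (adjusted p = 0.00614) and CDKN1A rose, as given for the treatment check. ORC1 had -1.91 (SE 1.55, adjusted p = 0.526). CDKN1B, the CDK inhibitor best known as an SKP2 substrate, had -0.55 (adjusted p = 0.594) in A549 and 1.44 (SE 0.53, adjusted p = 0.0785) in H1792.

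All 3 listed partners of survivin in the chromosomal passenger complex were called lower in A549 over the 6 libraries, and 0 of 3 without DMSO replicate 2 (-4.29 for AURKB, -3.15 for INCENP and -3.78 for CDCA8, with adjusted p of 0.0534 to 0.0711). In H1792 0 of 3 were called by edgeR, DESeq2 or limma-trend, with 1 lower at an unadjusted p under 0.05. The A549 log2 fold change was -4.24 for AURKB, its kinase (adjusted p = 0.0146), -3.94 for CDCA8, borealin (adjusted p = 0.0153), and -3.12 for INCENP, its scaffold (adjusted p = 0.0122). AURKB is also counted among the APC/C substrates, so the counts of these lists share this gene. AURKB in H1792 had -0.48 (adjusted p = 0.0598), and -0.21 (adjusted p = 0.359) with the GC correction. Of the other inhibitor of apoptosis genes in A549, 0 of 5 tested were called lower by edgeR, DESeq2 or limma-trend, with 0 lower at an unadjusted p under 0.05, and BIRC3 was called higher at 1.26 (SE 0.30, adjusted p = 0.0496), a call lost without any 1 library other than DMSO replicate 3 (1.07 to 1.31, adjusted p up to 0.177). BIRC6 had 0.47 (adjusted p = 0.198) and BIRC7 1.73 (SE 1.32, adjusted p = 0.494). In H1792, 1 of 4 was called lower, XIAP, named here after its value was seen, and BIRC2 was called higher at 1.02 (adjusted p = 0.00936), which became 0.44 (adjusted p = 0.171) with the GC correction.

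WEE1, the kinase that CDCA3 helps to remove, had 9.46 ± 3.20 CPM in A549 DMSO and 2.83 ± 0.95 CPM with RG7112 (SD, n = 3; log2 fold change -1.70, SE 0.43, adjusted p = 0.0580). In H1792 it had 0.86 (SE 0.27, adjusted p = 0.0461), and 0.27 (adjusted p = 0.525) with the GC correction. Of the 5 genes listed for CDK1 control, 2 were called lower in A549: CDK1 with a log2 fold change of -5.76 (adjusted p = 0.00240) and PKMYT1, a kinase related to WEE1, with -2.79 (adjusted p = 0.00130). DESeq2 called 3 of the 5, WEE1 among them (adjusted p = 0.0347). CDC25B, a phosphatase that activates CDK1, had -0.91 (adjusted p = 0.0143). In H1792, 0 of 5 were called by edgeR, DESeq2 or limma-trend. At an unadjusted p under 0.05, 3 were higher, a count for which the share over all genes was not taken. CDK1 had 0.84 in H1792 (adjusted p = 0.0385), which became 0.23 (adjusted p = 0.571) with the GC correction. For WEE1 and CDK1 in H1792 the adjusted p was above 0.05 without each single library (0.0555 to 0.147 for WEE1, up to 0.110 for CDK1), except for CDK1 without DMSO replicate 3 (adjusted p = 0.0277).

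**Figure D5:**
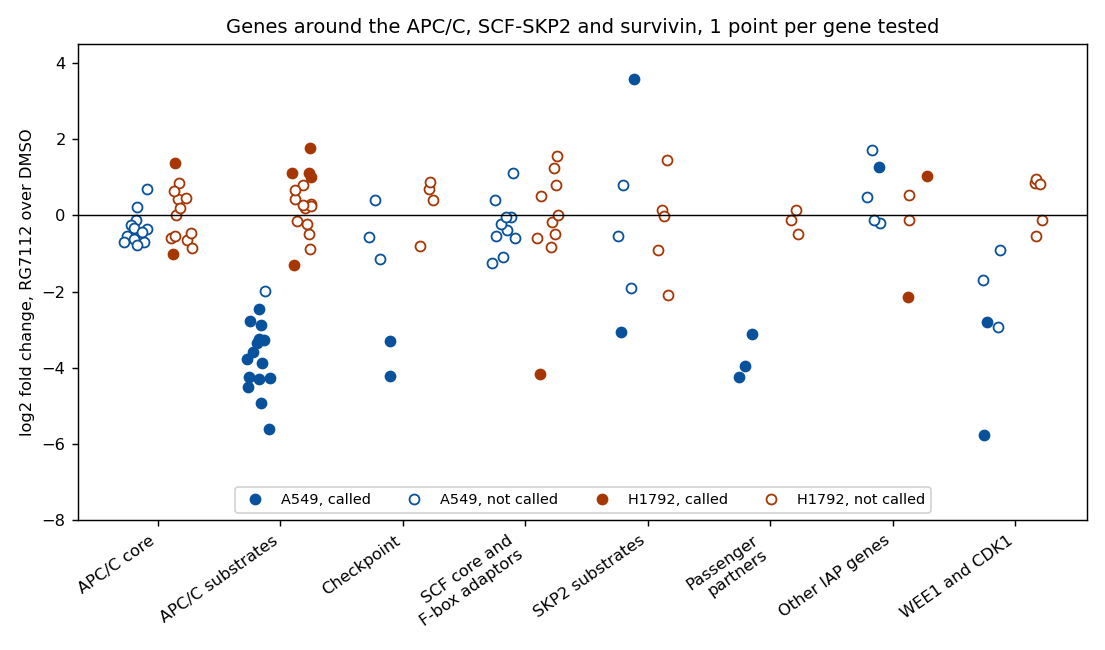
Log2 fold change of RG7112 over DMSO for the tested genes of 8 groups around the members, with A549 in blue and H1792 in orange and filled points for called genes. In A549 the APC/C substrates and the partners of survivin lie at or below -1.99, while the APC/C core lies between -0.78 and 0.70.

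The genes most like the 6 members called in A549 were sought by Pearson's r over the 12 libraries, on log2 CPM centred within each line, with the mean profile of those 6. Of 9181 genes tested in both lines, the highest were PHF19 (0.996), CENPN (0.992), MCM5 (0.992), PSRC1 (0.991) and TUBA1B (0.991). Each of the 6 members was set against the mean profile of the others, with r from 0.893 (CKS1B) to 0.984 (BIRC5). These values thus use other profiles than those of the genes outside the members. The libraries fall into treated and untreated groups and share their depth, so these values are a description. PHF19 had log2 fold changes of -2.83 (SE 0.20) in A549 and -0.42 (SE 0.12) in H1792.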

How the data were processed

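The RNA was poly-adenylated RNA sequenced in 12 libraries of A549 and H1792 cells, 3 per line and treatment. The authors pseudoaligned reads with kallisto 0.45.0 to Ensembl release 95 (GRCh38) and summed transcripts to genes, and the deposited values are estimated counts per gene, whole as deposited, with no normalization. The dose of 1 μM is that of the protocol, while the column names give 0.1 μM. kallisto divides reads among similar transcripts, so reads shared with pseudogenes of UBE2C, UBE2S, CKS1B and CDC20 can be split. The annotation held 13 such pseudogenes by symbol, and 0 of these were tested. Positions, lengths and GC content came from GENCODE release 29, which matched 18011 of the 20595 genes.

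Counts were tested with edgeR 4.0.16 in R 4.3.3: filterByExpr (minimum count 10, total 15), TMM scaling and the robust quasi-likelihood F test, per line for the treatment and over 12 libraries for the interaction and the lines in DMSO, with Benjamini-Hochberg adjustment over all genes tested. Adjusted p-values in the text are from this test. SE is the absolute log2 fold change divided by the square root of F. On simulated counts with 200 changed genes, 177 were recovered with 5 false calls of 10446 genes in the A549 comparison. The changed genes had means above 5 CPM and log2 fold changes of 2 or 3 in either direction, with the dispersion taken from its trend. Recovery of less abundant genes, smaller changes or an outlying replicate was not tested. Named genes are the 10 members, from each list the 3 smallest p in A549 and the smallest in H1792 and any gene called against most of its list, plus WEE1, CDKN1B, CDKN1A and MDM2. Members and lists were chosen with earlier results of these data known. Alternatives were DESeq2 1.42.0, limma-trend 3.58.1 (prior count 2), other scalings and filters, a GC correction (loess span 0.5), a replicate block and leaving out libraries.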

Additional observations from a re-analysis of the deposited data

Results flagged for a closer look

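The tested difference between the responses of A549 and H1792 to RG7112 (A549 minus H1792, log2 scale) marked 8 members for a closer look. The values were -4.31 for CDCA3, -4.29 for BIRC5, -3.76 for UBE2C, -3.55 for CDC20, -3.23 for SKP2, -2.81 for FBXO5, -2.05 for CKS1B and -1.75 for UBE2S. SKP2 and FBXO5 rest on few counts, and within the lines only SKP2 in H1792 passed the test (adjusted p = 0.0331), while SKP2 in A549 had 0.322, FBXO5 in H1792 had 0.121 and FBXO5 in A549 was not tested. After the GC correction the differences of SKP2 (adjusted p = 0.107), FBXO5 (adjusted p = 0.202) and CKS1B (adjusted p = 0.0620) no longer passed. The explanations for these differences were not tested.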

How the results depend on the processing

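Under the alternatives, 587 of 648 values of the members kept their direction and side of the threshold, 46 fell short of it, 12 passed it and 3 turned sign, all with scaling by library size alone: CKS1B (0.0316) and CDCA3 (0.0883) in H1792 and CDCA3 in H1792 DMSO over A549 DMSO (-0.17). Members not tested under an alternative are left out of these 648 values and not counted as lost. Among them are UBE2C, CDC20, BIRC5 and CDCA3 in A549 with at least 10 counts in all samples. Correlations of same-numbered deviations were 0.163, 0.0749 and 0.317 in A549 and -0.0507, -0.0273 and -0.00151 in H1792, and not every library correlated best with its own number. In A549 the replicate 3 libraries of both treatments went together (0.317), against -0.257 to -0.152 with the other numbers. Replicate numbers thus showed no pairing in H1792, while in A549 replicate 3 shared a deviation across treatments. With the replicate block, 4 members were called in A549 (UBE2C and CKS1B had adjusted p of 0.0599 and 0.0590), 0 in H1792, 6 differed in response and 2 differed between the lines in DMSO. With the block and the GC correction these counts were 4, 0, 5 and 2, and with the GC correction alone 6, 0, 6 and 2. In both fits with the block, the count between the lines compares them at replicate 1 only. It is therefore no check of the difference between the DMSO group means. With genes kept only where all samples held 10 counts or more, 2 members were called in A549, 0 in H1792, 2 with a difference in response and 0 between the lines, since fewer members were then tested. In H1792, 0 were called with all 12 samples in one fit or without replicate 3 of both treatments (0 calls among all genes), and 4 with no fold change threshold, which gave 4 between the lines as well. limma-trend gave 2 between the lines. Leaving out 1 library gave 4 to 5 called members in A549, 0 to 1 in H1792, 6 to 9 with a difference in response and 0 to 2 between the lines. Of the called genes named outside the members, 6 of 14 in A549 lost the call in at least 1 omission (AURKB without DMSO replicate 1 or 2 or RG7112 replicate 1, INCENP without DMSO replicate 1 or 2, CDCA8 without DMSO replicate 2 or RG7112 replicate 3, CDKN1A without each of the DMSO replicates, MDM2 without DMSO replicate 2, and BIRC3), with adjusted p up to 0.0694, 0.0544, 0.0711, 0.0960, 0.0534 and 0.177. In H1792 3 of 5 did: ANAPC7 without DMSO replicate 2, RG7112 replicate 2 or RG7112 replicate 3 (-0.97 to -0.84), PLK1 without any library but DMSO replicate 1 and RG7112 replicate 1 (adjusted p up to 0.0682) and BIRC2 without DMSO replicate 3 (0.91). Uncalled values that turned sign were MDM2 in H1792 (0.22 with library size alone, 0.0280 with the stricter filter, 0.0153 with limma-trend, 0.0086 with the block, 0.198 without replicate 3, -0.33 to 0.23 in omissions of 1 library), CDKN1A in H1792 (-0.31 to 0.99), CDKN1B in A549 (-0.87 to 0.13) and BIRC7 in A549 (-0.31 to 2.35 in such omissions). Depth (3 counts are 0.465 to 1.43 CPM) limits FBXO5, SKP2 and the treated A549 levels of UBE2C and CDC20.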
